A study of Mus musculus with 12 samples.

Results

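The 10 genes described here make, sense and carry bile acids: the synthesis enzymes Cyp7a1, Cyp8b1, Cyp27a1 and Cyp7b1, the nuclear receptors Nr1h4 and Nr0b2, and the carriers Slc10a1, Slc10a2, Slc51a and Slc51b. They were chosen by name, and all 10 were found among the 55416 genes of each of the 2 expression tables. The tables came from male C57BL6/J mice, aged 8 weeks at the start, that received corticosterone (CORT) at 40 mg/kg or vehicle (Veh; DMSO, Tween and water) by daily subcutaneous injection over 8 weeks. CORT is the principal glucocorticoid of mice. RNA-seq was done on liver and on intestine, which the study's methods name as duodenum, giving 3 libraries for each treatment in each tissue and 12 altogether. The sources used here do not state whether liver and duodenum libraries with the same number share a mouse, nor the time of day at which tissue was taken.

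Bile acids are made from cholesterol in hepatocytes. CYP7A1 is the rate-limiting enzyme of the classic route, CYP8B1 directs that route towards cholic acid, CYP27A1 oxidizes the side chain and opens the alternative route, and CYP7B1 acts on the oxysterols that CYP27A1 makes. FXR, the product of Nr1h4, is the bile acid receptor, and one of its targets is Nr0b2, which encodes SHP, a repressor of Cyp7a1. Bile acids are taken up by ASBT (Slc10a2) in the ileum, leave the enterocyte through OSTalpha-OSTbeta (Slc51a and Slc51b, which work only as a pair) and enter hepatocytes through NTCP (Slc10a1).

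The sequences below show what lies before the start of the 2 genes that rose in the duodenum, Cyp27a1 and Nr0b2, and of the paired subunits Slc51a and Slc51b. Each is the 250 bases upstream of the start, 5′ to 3′ on the gene's strand, from RefSeq on GRCm38.p6, and capitals mark AGGTCA, the motif bound by many nuclear receptors, or its complement TGACCT. The tables themselves hold no coordinates, and the genes were matched by symbol. The windows are chr1:74713285-74713534 (plus strand) for Cyp27a1, chr4:133553126-133553375 (plus strand) for Nr0b2, chr16:32487880-32488129 (minus strand) for Slc51a and chr9:65422774-65423023 (minus strand) for Slc51b.
Cyp27a1: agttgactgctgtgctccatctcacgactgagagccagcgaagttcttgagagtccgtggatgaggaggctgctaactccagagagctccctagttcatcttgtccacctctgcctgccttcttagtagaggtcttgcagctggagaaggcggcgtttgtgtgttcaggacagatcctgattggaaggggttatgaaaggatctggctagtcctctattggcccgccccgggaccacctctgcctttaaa
Nr0b2: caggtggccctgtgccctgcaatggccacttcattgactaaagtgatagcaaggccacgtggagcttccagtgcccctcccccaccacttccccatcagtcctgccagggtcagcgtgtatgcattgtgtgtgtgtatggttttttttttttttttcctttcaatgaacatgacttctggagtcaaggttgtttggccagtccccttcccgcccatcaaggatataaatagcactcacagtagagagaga
Slc51a: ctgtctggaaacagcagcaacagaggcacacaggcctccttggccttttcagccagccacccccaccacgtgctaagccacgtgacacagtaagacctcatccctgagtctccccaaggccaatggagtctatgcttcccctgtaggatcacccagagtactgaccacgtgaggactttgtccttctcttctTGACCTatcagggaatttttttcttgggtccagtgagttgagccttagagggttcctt
Slc51b: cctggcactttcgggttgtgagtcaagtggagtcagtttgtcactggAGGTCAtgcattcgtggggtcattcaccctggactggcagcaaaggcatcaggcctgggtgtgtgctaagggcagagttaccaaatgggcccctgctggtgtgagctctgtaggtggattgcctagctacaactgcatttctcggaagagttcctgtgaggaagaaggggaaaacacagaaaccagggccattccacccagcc
AGGTCA lay 58 bases before the start of Slc51a, on the opposite strand, and 203 bases before the start of Slc51b. The Cyp27a1 and Nr0b2 windows do not hold these letters on either strand. Of the 9 RefSeq windows found for 8 of the 10 genes, 4 held AGGTCA, against 14.0% of all 32851 windows. None of the 9 held the glucocorticoid receptor motif AGAACA, which 16.1% of all windows held, or CAAGGTCA, a motif of LRH-1, which 1.33% held. The inverted repeat of AGGTCA with 1 base between, to which FXR binds, was in 2 of all windows, and the palindrome of AGAACA was in 3, none of them in front of these genes. A match is a description of letters and not a bound site, and AGGTCA lies within both CAAGGTCA and the inverted repeat. Only these exact letters were searched, so a window without a match can still hold a site that differs from them.

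Values are TPM, relative transcript abundances per transcript length that bring all libraries to a similar sum. They do not tell how many reads were counted, and their precision is read from the spread of 3 libraries per group. A gene was tested, with limma on log2(TPM + 1), if its mean reached 1 TPM under either treatment. On this scale changes of weakly expressed genes come out too small. A gene was called at a Benjamini-Hochberg adjusted p of 0.05 or less, over all genes tested, and a fold change over 1.5. Fkbp5, a direct glucocorticoid receptor target that checks the treatment, was higher under CORT in both tissues, with 248 ± 26.1 against 13.1 ± 6.19 TPM in liver (limma adjusted p = 0.00178) and 304 ± 66.7 against 15.35 ± 7.41 TPM in duodenum (0.00450; SD, n = 3). In the liver 6.92% of 11699 genes were called, 4.91% higher and 2.01% lower under CORT. In the duodenum 2.15% of 13607 genes were called, 1.23% higher and 0.919% lower. Of the liver calls 71.0% were higher, but 53.7% of 1011 calls were higher after scaling each library by the median of its gene ratios, which moved the median log2 change of all genes from 0.08 to -0.0028. In tissue RNA, fewer cells of a type and less RNA per cell cannot be told apart.

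Liver and duodenum held different sets of these genes. In the liver 8 of the 10 passed the filter on low values. Slc51a and Slc51b did not, at 0.21 TPM or less and 1.12 TPM or less in every liver library. In the duodenum 6 of 10 passed. Cyp7a1 was listed at 0 in all 6 duodenum libraries, and Cyp8b1, Slc10a1 and Slc10a2 reached at most 0.30, 0.07 and 0.60 TPM. Slc10a2 and its ileal companions Fgf15, the gut hormone that FXR induces, and Fabp6, a bile acid binding protein, were thus at or near 0 in the duodenum: Fgf15 was listed at 0 in all 12 libraries and Fabp6 reached 0.73 TPM. Gata4, a duodenal marker, was between 78.6 and 113 TPM in the 6 duodenum libraries, and all 8 enterocyte markers were present. Slc40a1, another, was at 263 and 302 TPM in Veh libraries 2 and 3, 11.8 in Veh library 1 and 3.22 to 56.0 under CORT. In that order Cybrd1 was at 13.6, 8.53, 0.64 and 1.5 to 2 TPM, and Pdx1 at 41.9, 40.6, 13.4 and 8.13 to 32.4 TPM. Onecut2 and Heph, like Gata4, did not split the Veh libraries in this way. The stretch of gut in each library was not tested. The hepatocyte markers summed to between 103986 and 127648 TPM in the liver, and at most 18.8 TPM in the duodenum. In the duodenum the 6 duodenal markers summed to between 227 and 300.2 TPM under CORT and to 220, 489 and 536 TPM in Veh. The 8 ileal markers summed to between 184 and 265 TPM under CORT and between 136 and 220 TPM in Veh. Most of the ileal sum was 1 gene, Guca2a, at 112 to 230 TPM. Cubn was at 12.2, 1.85 and 3.83 TPM in Veh libraries 1 to 3 and 6.32, 4.61 and 19.3 TPM under CORT. In the same order Osr2 was at 2.91, 0.20 and 0 TPM and 0.05, 0.19 and 3.61 TPM. Pyy went the other way in Veh, at 0.53, 15.3 and 9.75 TPM, and was at 2.07, 6.15 and 1.93 TPM under CORT. Naip1 was at 8.19 to 10.9 TPM in all. Of the 14 acinar markers of the pancreas, 10 were listed at 0 in every liver library.

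In Veh liver the order of mean levels was Slc10a1 (372 TPM), Cyp27a1 (248), Cyp8b1 (105), Cyp7b1 (102), Nr1h4 (75.3), Nr0b2 (48.1), Cyp7a1 (25.9) and Slc10a2 (8.44). The libraries of Slc10a1 and Cyp27a1 overlapped, and so did those of each neighbouring pair from Cyp8b1 down to Cyp7a1. In CORT-treated liver Cyp27a1 (468 TPM) and Slc10a1 (350) led, with overlapping libraries, and Cyp7a1 (10.5) was the lowest of the 8. In Veh duodenum the order was Slc51a (163 TPM), Slc51b (130), Cyp27a1 (31.9), Nr1h4 (16.0), Nr0b2 (7.27) and Cyp7b1 (0.55), and no neighbours overlapped. In CORT-treated duodenum Cyp27a1 (172 TPM), Slc51b (118) and Slc51a (91.1) led, and the libraries overlapped between Cyp27a1 and Slc51b and between Slc51b and Slc51a.

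In the liver, Cyp27a1 was the 1 gene of the 10 that rose under CORT. It measured 514, 419 and 472 TPM in the CORT libraries against 240, 220 and 284 TPM in the Veh libraries (ENSMUSG00000026170). All 3 CORT libraries lay above all 3 Veh libraries. The means were 468 ± 47.9 and 248 ± 32.7 TPM (SD, n = 3), a log2 fold change of 0.92 (SE 0.15, 95% interval 0.57 to 1.27, limma adjusted p = 0.0182). The call was lost without CORT library 1 (adjusted p = 0.0792) or Veh library 1 (0.0618), while the log2 fold change stayed between 0.84 and 1.02.

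Cyp7a1 (ENSMUSG00000028240) measured 6.94, 8.80 and 15.7 TPM under CORT against 26.7, 31.8 and 19.05 TPM in Veh liver. Every CORT library was below every Veh library, but the lowest Veh library and the highest CORT library were close. The means were 10.5 ± 4.62 and 25.9 ± 6.44 TPM. Its log2 fold change of -1.27 (SE 0.31, 95% interval -1.99 to -0.55) missed the threshold (limma adjusted p = 0.0555). Without CORT library 3, the highest of that group, it was -1.58 and was called (adjusted p = 0.0230), and scaling by median ratios gave -1.36 with an adjusted p of 0.0359.

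Cyp7b1 (ENSMUSG00000039519) measured 36.4, 14.9 and 32.7 TPM under CORT and 175, 45.5 and 86.7 TPM in Veh liver. The groups did not overlap, and the Veh libraries spread widely (102 ± 66.4 TPM against 28.0 ± 11.5). The log2 fold change was -1.72 (SE 0.52, 95% interval -2.96 to -0.49, limma adjusted p = 0.0953), and it was not called with any library left out.

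Cyp8b1 (ENSMUSG00000050445) measured 175, 206 and 33.1 TPM under CORT and 91.4, 38.4 and 186 TPM in Veh liver. Both groups held high and low libraries and overlapped over most of their range. The log2 fold change was 0.29 with a 95% interval from -1.60 to 2.19 (limma adjusted p = 0.847), an interval that holds large changes in either direction. Its sign turned with the library left out, from -0.29 to 1.12.

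Of 3 ratios of these enzymes within a library, chosen after their values were seen, 2 separated the liver groups. Cyp27a1 over Cyp7a1 was 74.1, 47.6 and 30.05 under CORT against 8.98, 6.92 and 14.9 in Veh, a mean log2 difference of 2.28. Cyp7b1 over Cyp27a1 was 0.0707, 0.0355 and 0.0692 under CORT against 0.731, 0.206 and 0.305, a mean log2 difference of -2.68. For each, the two-sided exact permutation p was 0.1, the smallest that 3 libraries against 3 allow. Cyp27a1 was higher, and Cyp7a1 and Cyp7b1 lower, in every CORT library. These 2 ratios therefore had to separate with this p, and add nothing to the single genes. Cyp8b1 over Cyp7a1 overlapped between the groups (25.3, 23.4 and 2.11 against 3.42, 1.205 and 9.74, exact permutation p = 0.3).

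**Figure D1:**
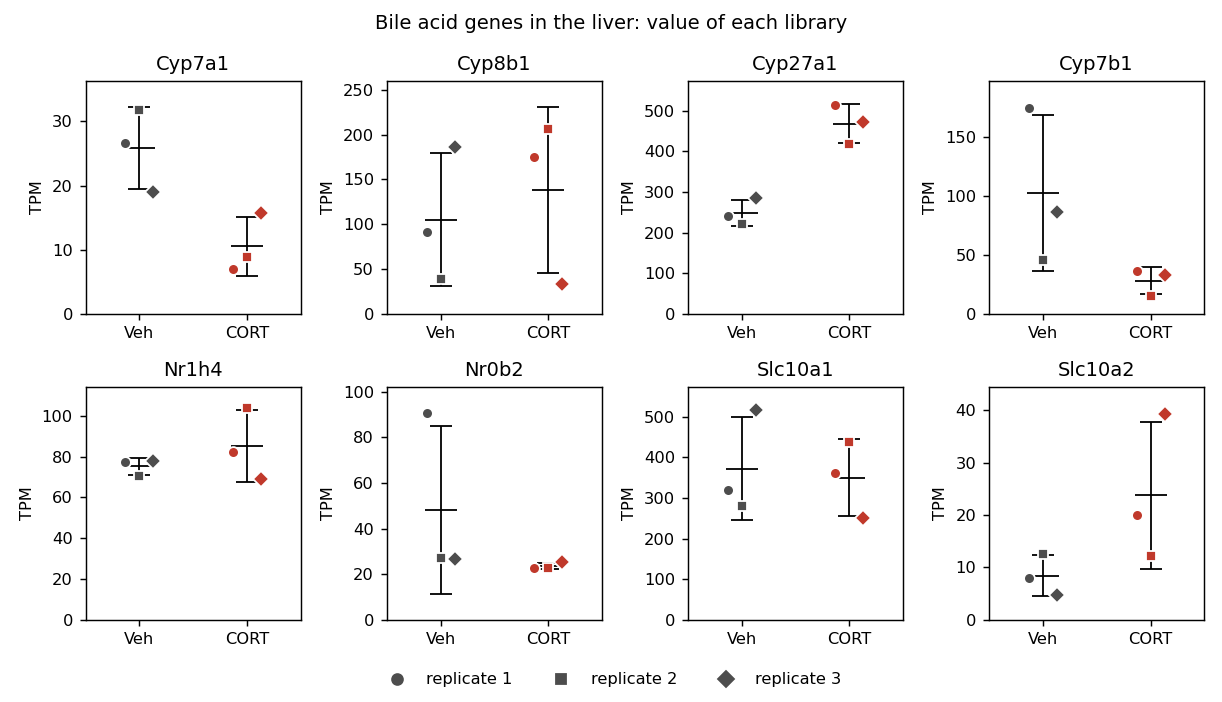
TPM of the 8 bile acid genes that passed the filter in the liver, in each Veh (grey) and CORT (red) library, where symbols give the replicate number and the line and bars give the mean and SD of 3 libraries. Cyp27a1 lies higher in all CORT libraries (419 to 514 TPM), Cyp7a1, Cyp7b1 and Nr0b2 lie lower in all CORT libraries, and the groups of the other 4 genes overlap.

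Of the liver receptors, Nr1h4 (ENSMUSG00000047638) measured 82.5, 104 and 69.0 TPM under CORT and 77.5, 70.4 and 78.0 TPM in Veh. The groups overlapped, and the log2 fold change was 0.16 (95% interval -0.24 to 0.55, limma adjusted p = 0.596). Nr0b2 (ENSMUSG00000037583) measured 22.9, 22.6 and 25.1 TPM under CORT and 90.5, 27.3 and 26.6 TPM in Veh liver. Each CORT value lay below each Veh value, but Veh library 1 stood alone at the top of its group. The log2 fold change was -0.76 (95% interval -1.81 to 0.29, limma adjusted p = 0.329), and without Veh library 1 it was -0.19.

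Among the carriers, Slc10a1 (ENSMUSG00000021135) measured 361, 439 and 251 TPM under CORT and 319, 281 and 517 TPM in Veh liver. The groups overlapped and the log2 fold change was -0.07 (95% interval -0.75 to 0.61, limma adjusted p = 0.899). Leaving out CORT library 3 or Veh library 3 turned its sign, to 0.15 and 0.19. Slc10a2 (ENSMUSG00000023073) measured 19.95, 12.1 and 39.4 TPM under CORT and 8.06, 12.6 and 4.66 TPM in Veh liver. The lowest CORT library fell just inside the Veh range, and the log2 fold change of 1.33 (95% interval 0.24 to 2.42) was not called (limma adjusted p = 0.128). In liver Slc10a2 is known from bile duct cells. The 7 cholangiocyte markers summed to 50.4, 50.3 and 25.1 TPM under CORT and 44.6, 60.0 and 63.1 TPM in Veh, lowest in CORT library 3, where Slc10a2 was highest. Most of that sum was Spp1, at 16.3 TPM in CORT library 3. Sox9, another marker of the list, measured 2.20, 2.32 and 3.03 TPM under CORT and 1.17, 1.30 and 1.25 TPM in Veh (limma adjusted p = 0.0673), highest in CORT library 3 as Slc10a2 was. The part of bile duct cells in the Slc10a2 values was not tested.

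In all, 1 of the 8 liver genes that passed was called, beside 6.92% of all liver genes. For 4 of the 8 the CORT and Veh libraries were fully apart, beside 32.2% of all genes tested, and the median log2 fold change was 0.04 beside 0.08 over all genes. Veh library 2 and CORT library 3, in which Cyp8b1 and Slc10a1 were lowest in their groups, were left out together after the values were seen. This also gave 1 call, but of Cyp7a1 (log2 fold change -1.42, limma adjusted p = 0.0450) in place of Cyp27a1 (0.83, 0.0681). CORT library 3 was also the highest CORT library of Cyp7a1, so this call is no further support.

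In the duodenum, Cyp27a1 and Nr0b2 rose under CORT. Cyp27a1 measured 154, 133 and 228 TPM under CORT against 45.3, 21.3 and 29.2 TPM in Veh. The lowest CORT library was well above the highest Veh library. The means were 172 ± 50.2 and 31.9 ± 12.2 TPM (SD, n = 3), a log2 fold change of 2.42 (SE 0.31, 95% interval 1.69 to 3.15, limma adjusted p = 0.0189). The call was lost without CORT library 1 (adjusted p = 0.0599), without Veh library 3 (0.0783) or with no filter (0.0632), with log2 fold changes from 2.17 to 2.70 over the libraries left out.

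Nr0b2 measured 20.9, 22.5 and 15.9 TPM under CORT against 5.92, 8.78 and 7.10 TPM in Veh duodenum. The groups were apart, with means of 19.8 ± 3.42 and 7.27 ± 1.44 TPM. The log2 fold change was 1.33 (SE 0.19, 95% interval 0.89 to 1.77, limma adjusted p = 0.0253). It was lost without CORT library 1 (adjusted p = 0.0781), CORT library 2 (0.0675), Veh library 3 (0.1004), or with no filter on low values (0.0727), and the log2 fold change stayed between 1.21 and 1.47. Nr1h4 measured 23.7, 22.4 and 22.8 TPM under CORT and 13.9, 14.7 and 19.4 TPM in Veh. The groups did not overlap, but the log2 fold change of 0.51 (95% interval 0.16 to 0.86) was not called (limma adjusted p = 0.139).

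The 2 subunits of the basolateral exporter differed. Slc51a (ENSMUSG00000035699) measured 107, 72.2 and 94.2 TPM under CORT and 176, 154 and 159 TPM in Veh duodenum. All CORT libraries were below all Veh libraries, and the log2 fold change of -0.85 (SE 0.17, 95% interval -1.25 to -0.45) was just over the threshold (limma adjusted p = 0.0582). Slc51b (ENSMUSG00000053862) measured 138, 102 and 113 TPM under CORT and 149, 121 and 120 TPM in Veh. Its groups overlapped, with a log2 fold change of -0.14 (95% interval -0.52 to 0.24, limma adjusted p = 0.655). The ratio of Slc51a to Slc51b within a library, chosen after its values were seen, was 0.776, 0.705 and 0.831 under CORT against 1.18, 1.27 and 1.33 in Veh. Slc51b was thus the higher subunit in every CORT library and Slc51a in every Veh library. The mean log2 difference in the ratio was -0.71 (two-sided exact permutation p = 0.1, the smallest possible).

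Cyp7b1 was low in the duodenum, at 1.04, 1.04 and 1.14 TPM under CORT and 0.53, 0.73 and 0.39 TPM in Veh. The groups did not overlap, with a log2 fold change of 0.43 (95% interval -0.05 to 0.90, limma adjusted p = 0.305). It passed the filter on its CORT mean alone.

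**Figure D2:**
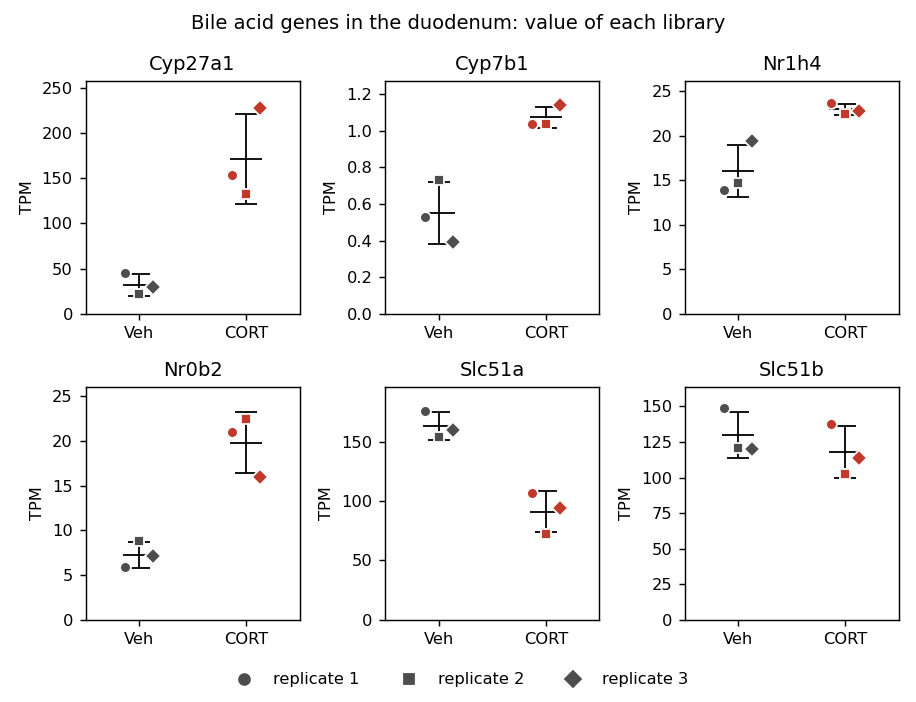
TPM of the 6 bile acid genes that passed the filter in the duodenum, in each Veh (grey) and CORT (red) library, where symbols give the replicate number and the line and bars give the mean and SD of 3 libraries. Cyp27a1, Cyp7b1, Nr1h4 and Nr0b2 lie higher and Slc51a lower in all CORT libraries, and only the Slc51b groups overlap.

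**Figure D3:**
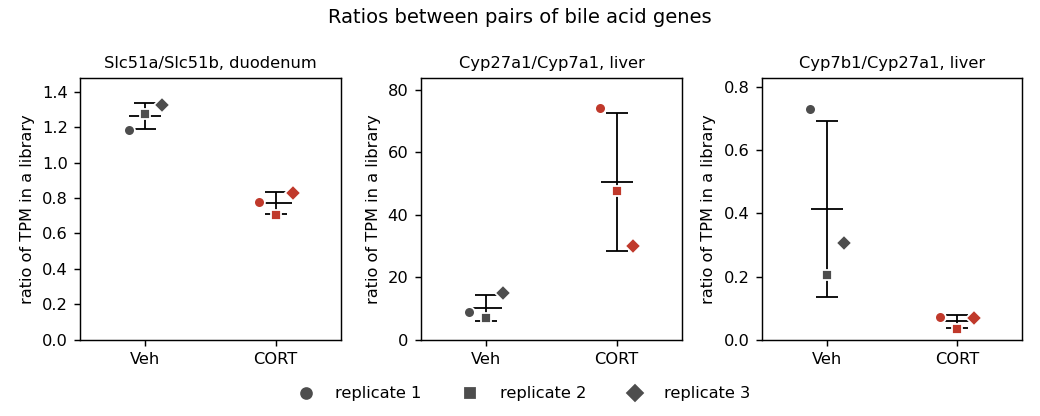
Ratio of the TPM values of 2 genes within a library, in Veh (grey) and CORT (red) libraries, with the mean and SD of 3 libraries. The ratio of Slc51a to Slc51b in the duodenum lies above 1 in all Veh libraries and below 1 in all CORT libraries. The 2 liver ratios shown, Cyp27a1 over Cyp7a1 and Cyp7b1 over Cyp27a1, do not overlap between the groups, which follows from their single genes. The liver ratio of Cyp8b1 to Cyp7a1, which overlaps, is not drawn.

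Of the 6 genes that passed in the duodenum 2 were called, beside 2.15% of all genes tested. The CORT and Veh libraries of Cyp27a1, Nr1h4, Nr0b2 and Slc51a were fully apart, beside 26.4% of all genes. Those of Cyp7b1 were too, but it had passed the filter only through the group where it was higher. Pancreatic acinar markers stood high in part of the Veh group. Without Zg16, which goblet cells also make, the 13 acinar markers summed to 36028 and 28462 TPM in Veh libraries 2 and 3, to 173 TPM in Veh library 1 and to between 140 and 314 TPM under CORT. The 8 enterocyte markers summed to 46062, 42326 and 44986 TPM under CORT and 36141, 23896 and 24251 TPM in Veh, with no overlap. Most of that sum was Apoa4, Fabp1 and Fabp2, which carry lipid. Of the 8 markers 0 were called by limma, and 3 were at an unadjusted p under 0.05, a share not counted over all genes. The log2 fold change was positive for 4 and negative for 4, which were Vil1 (-0.16), Alpi (-0.49), Sis (-0.02) and Anpep (-0.32). With the acinar markers removed and the rest rescaled, 3 genes were called, Slc51a among them (log2 fold change -0.88, limma adjusted p = 0.0469). Without Veh libraries 2 and 3, which leaves 1 Veh library that is assumed to vary like the others, 0 were called, with log2 fold changes of 1.86 for Cyp27a1 (limma adjusted p = 0.240), 1.57 for Nr0b2 (0.217) and -0.96 for Slc51a (0.397). The part of these markers in the values was not tested.

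**Figure D4:**
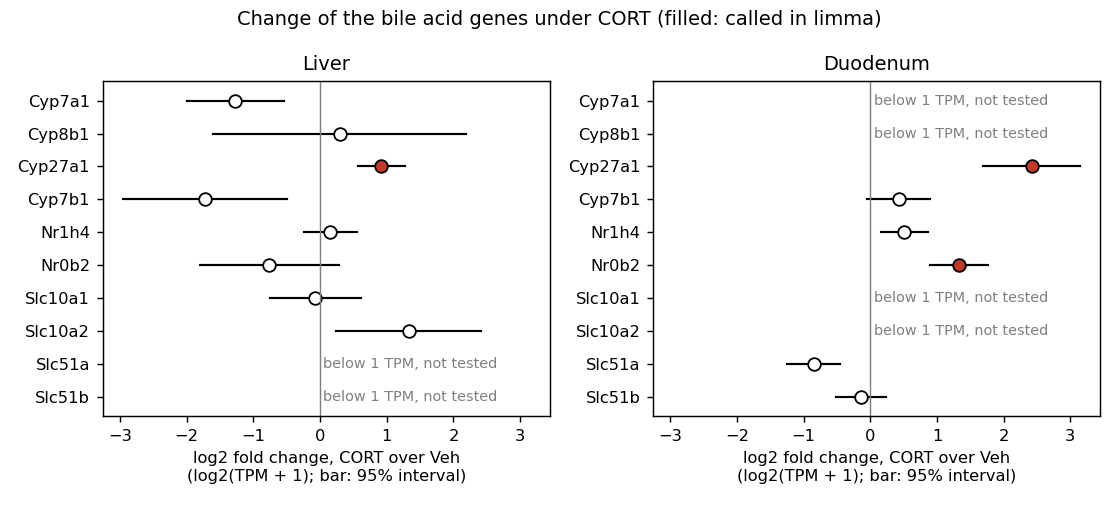
Log2 fold change under CORT of the 10 bile acid genes in liver and duodenum on the log2(TPM + 1) scale, with 95% intervals, where filled points were called by limma. Cyp27a1 is called in both tissues (0.92 in liver and 2.42 in duodenum) and Nr0b2 in the duodenum alone, and genes below the filter are marked as not tested.

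Cyp27a1 changed more in the duodenum than in the liver. A limma fit over all 12 libraries with a treatment by tissue term called 3.61% of the 14806 genes that passed the filter in either tissue. Of the 4 genes that passed the filter in both tissues 1 was called: the change of Cyp27a1 was larger in the duodenum by 1.5004 on the log2 scale (SE 0.37, 95% interval 0.70 to 2.30, adjusted p = 0.0493). It was called in 2 of 12 fits with a library left out, those without duodenum CORT library 2 or Veh library 1, and the other 10 gave adjusted p-values from 0.0570 to 0.111. A pseudocount of 0.1 (adjusted p = 0.0582) or no filter on low values (0.0985) also ended the call. Nr0b2 was lower in all CORT libraries of the liver and higher in all those of the duodenum, a difference of 2.09 (95% interval 0.92 to 3.26) that was not called (limma adjusted p = 0.0577). It was called without liver Veh library 1 (adjusted p = 0.0114), 2 (0.0381) or 3 (0.0478). For Cyp7b1, which passed in the duodenum on its CORT mean alone, the difference was 2.15 (95% interval 0.83 to 3.46, limma adjusted p = 0.0800). It was called without liver Veh library 2 (0.0186). The difference for Nr1h4 was 0.35 (95% interval -0.14 to 0.85, limma adjusted p = 0.447).

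Around these genes, 46 others of the pathway were examined in 3 lists. Of the 14 further enzymes of synthesis and conjugation, 12 passed the filter in the liver and 1 rose, beside 4.91% of all genes tested. In the duodenum 9 passed and 1 rose, beside 1.23% of all genes tested. In the liver the gene that rose was Cyp39a1, an oxysterol hydroxylase of a minor route. It measured 46.3, 38.9 and 49.4 TPM under CORT against 3.93, 11.6 and 6.10 TPM in Veh. Its libraries were far apart, with a log2 fold change of 2.59 (SE 0.32, limma adjusted p = 0.00774), and it stayed called with any single library left out. In the duodenum it was Acox2, the peroxisomal oxidase that shortens the side chain, at 54.6, 39.4 and 54.4 TPM against 4.56, 2.66 and 5.2 TPM. The log2 fold change was 3.32 (SE 0.23, limma adjusted p = 0.00310), also called with any single library left out, but not without Veh libraries 2 and 3 together (3.17, 0.0859).

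The tissues differed for both genes. Acox2 measured 115 ± 9.56 TPM under CORT and 101 ± 1.56 TPM in Veh liver (log2 fold change 0.19, limma adjusted p = 0.361), and Cyp39a1 measured 2.67 ± 0.48 and 2.52 ± 0.36 TPM in the duodenum (0.06, 0.886). The treatment by tissue term was called for both, at 3.13 for Acox2 (limma adjusted p = 0.000222) and -2.53 for Cyp39a1 (0.00604), as duodenum minus liver. Of the enzymes not called, those with the smallest p were the same in both tissues. Hsd3b7, which acts early on the sterol ring, had a log2 fold change of -0.77 in liver (limma adjusted p = 0.107) and -0.64 in duodenum (0.0609). Hsd17b4, a peroxisomal enzyme of side chain shortening, had 0.79 in liver (limma adjusted p = 0.0613, and 0.0145 without CORT library 3) and 0.39 in duodenum (0.190).

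Of the 13 further carriers, 11 passed in the liver and 7 in the duodenum. Limma called 0 in either tissue, beside 6.92% and 2.15% of all genes tested. At an unadjusted p under 0.05 there were 3 and 2, a share that was not counted over all genes. The median log2 fold change of the carriers in liver was -0.26, beside 0.08 over all genes. Abcb11, the bile salt export pump, named here after its values were seen, measured 106 ± 17.0 TPM under CORT and 134 ± 11.6 TPM in Veh liver (log2 fold change -0.34, limma adjusted p = 0.226). Abcg8, a subunit of the sterol exporter, had a log2 fold change of -0.63 in liver (limma adjusted p = 0.0915), and Abcb4, which moves phosphatidylcholine into bile, had 0.61 (0.104). In the duodenum the organic anion exporters Abcc3 and Abcc2 had -1.12 (limma adjusted p = 0.0654, and 0.0356 without CORT library 1) and -0.57 (0.167).

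Of the 19 further regulators, 16 passed in each tissue. In the liver 3 rose and 2 fell, beside 4.91% and 2.01% of all genes tested. Hnf4a, a nuclear receptor present in both tissues, rose from 150 ± 9.64 to 276 ± 41.7 TPM (log2 fold change 0.86, limma adjusted p = 0.0211). In the duodenum Hnf4a measured 204 ± 15.2 TPM in Veh and 176 ± 13.4 TPM under CORT (-0.21, limma adjusted p = 0.396). Mafg, a repressor that FXR induces, rose from 10.4 ± 0.61 to 20.8 ± 4.81 TPM (log2 fold change 0.91, limma adjusted p = 0.0330). These calls were less stable: Hnf4a was lost without CORT library 1 (adjusted p = 0.0863), Veh library 1 (0.0708) or Veh library 3 (0.0829), and Mafg was kept only without CORT library 2. Nr1d1, the clock repressor REV-ERBalpha, fell from 46.5 ± 13.1 to 11.4 ± 3.23 TPM (log2 fold change -1.93, limma adjusted p = 0.00907). Dbp, a clock-controlled transcription factor known to act on Cyp7a1, fell from 90.7 ± 28.9 to 16.1 ± 6.53 TPM (-2.46, adjusted p = 0.0120). Both stayed called with any single library left out, but Nr1d1 was not called without Veh library 2 and CORT library 3 together (-1.83, limma adjusted p = 0.0551). Cyp7a1 has a daily rhythm, its values were lower beside these clock genes, and the part of the time of day was not tested.

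In the duodenum 1 regulator rose and 1 fell, beside 1.23% and 0.919% of all genes tested. Ppara, the fatty acid receptor, rose from 10.9 ± 2.36 to 26.5 ± 4.82 TPM (log2 fold change 1.21, limma adjusted p = 0.0329), but was not called in any of the 6 fits with a library left out (adjusted p from 0.0604 to 0.102). Nr1d1 fell from 63.3 ± 14.8 to 13.9 ± 4.42 TPM (-2.13, adjusted p = 0.0189), a call lost without CORT library 1 (0.0523) or Veh library 3 (0.0668). Dbp, called in the liver, was not called in the duodenum (-1.22, limma adjusted p = 0.105), where its groups did not overlap. Of those not called, Nr1i2, the xenobiotic receptor PXR, had a log2 fold change of 0.98 in duodenum (limma adjusted p = 0.0643) and 0.89 in liver (0.0651, and 0.0244 without CORT library 3). Fgfr4, the hepatocyte receptor for FGF15, measured 6.01 ± 2.04 TPM under CORT and 12.5 ± 1.96 TPM in Veh liver (-0.98, limma adjusted p = 0.0564, and 0.0427 without CORT library 3).

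Over the 3 lists, 4 genes rose and 2 fell among the 39 that passed in the liver, beside 4.91% and 2.01% of all genes tested. In the duodenum 2 rose and 1 fell among the 32 that passed, beside 1.23% and 0.919%. In the liver CORT and Veh libraries were fully apart for 16 of the 39, beside 32.2% of all genes, and the median log2 fold change was 0.09 beside 0.08. In the duodenum they were fully apart for 13 of the 32, beside 26.4% of all genes, and the median was 0.06 beside -0.01. Among the 13 was Cyp2c70, named after its values were seen, which passed the filter only through its CORT mean, where it was higher.

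**Figure D5:**
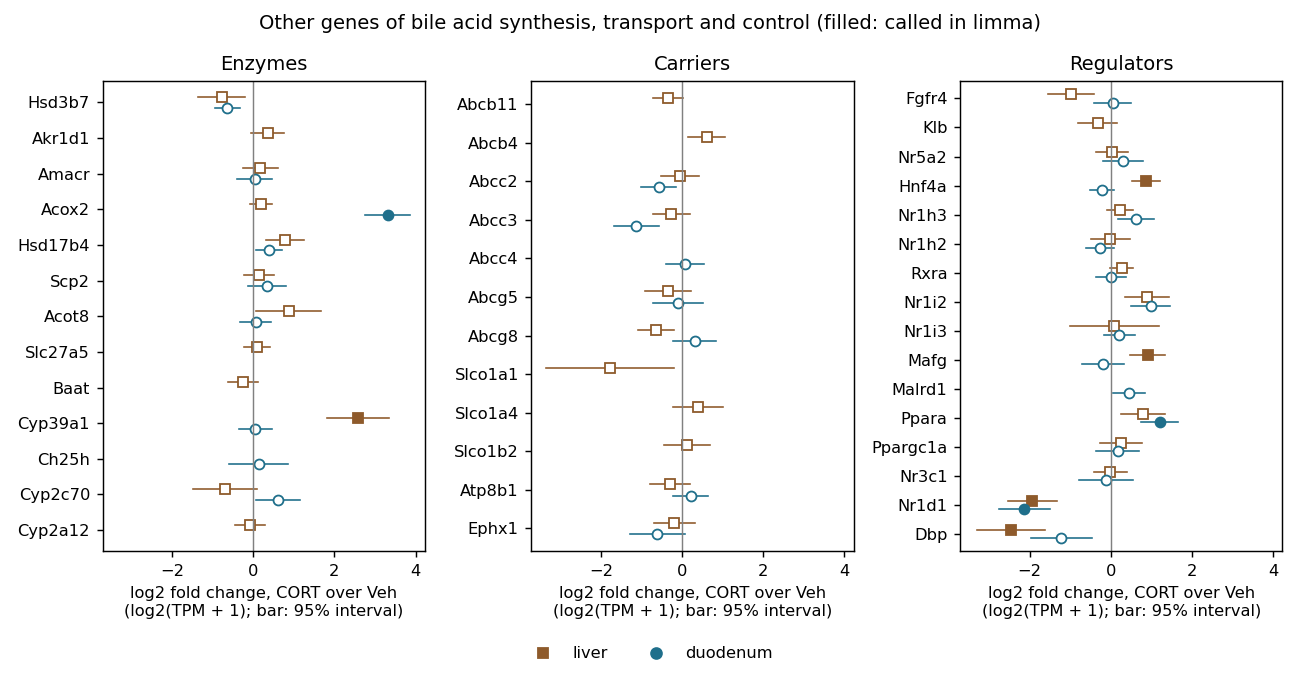
Log2 fold change under CORT, on the log2(TPM + 1) scale with 95% intervals, of the further enzymes, carriers and regulators that passed the filter and are reported in liver (brown squares) and duodenum (blue circles), where filled symbols were called by limma. Cyp39a1 (2.59) stands out in liver and Acox2 (3.32) in duodenum among the enzymes, no carrier is called, and Nr1d1 is lower in both tissues.

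The genes whose log2(TPM + 1) followed a bile acid gene most closely over the 6 libraries of a tissue are given as a description, since the points share 2 treatment groups. For Cyp7a1 in liver they were Mx2 (Pearson r = 0.988), Junb (0.986) and Itih1 (0.985). Junb measured 8.49, 12.4 and 39.97 TPM under CORT and 65.2, 95.3 and 56.5 TPM in Veh, with CORT library 3 the highest of its group, as for Cyp7a1. For Nr0b2 in liver they were Zfp618 (0.993), 4833419F23Rik (0.993) and Mir6376 (0.990). All 3 followed Veh library 1, at 9.41, 2.91 and 7.29 TPM there and 0.33 TPM or less in the other libraries. For Slc51a in duodenum they were Plcd1 (0.998), Niban2 (0.998) and Eefsec (0.997), of which Plcd1 measured 8.05, 6.47 and 7.62 TPM under CORT and 10.7, 9.67 and 9.92 TPM in Veh.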

How the data were processed

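RNA-seq libraries of liver and duodenum from CORT-treated and Veh mice (3 per group, 12 in all) were grouped by the sample labels. Reads were trimmed by the authors (SeqPrep, Sickle), mapped with HISAT2 and quantified with RSEM. Assembly with StringTie and the build GRCm39 are named in the submitters' processing notes, without versions. The deposited tables give TPM for each gene in each single library, and these sum to between 983327 and 997319 per library over 55416 genes. TPM keep no depth, so no counting intervals or detection limits are given.

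Values were taken as log2(TPM + 1), genes whose mean reached 1 TPM under either treatment were kept, and limma 3.58.1 (lmFit, eBayes with trend) in R 4.3.3 was run separately per tissue. Benjamini-Hochberg adjustment covered all genes tested, and adjusted p-values of genes are limma's and two-sided. The authors called DEGs with DESeq2, which needs counts, so it was not run here. The fits were tested on simulated data. The labels call the replicates biological without naming animals, so p-values measure only the spread between these libraries. Same-numbered CORT and Veh libraries did not deviate together (r of their deviations -0.12 to 0.07), so no pairing was used.

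The 10 genes, the gene and marker lists and the tests were chosen with earlier results of these data known. Named genes were the 10, members of the further lists that were called, the 2 with the smallest p of those not called per list and tissue, Fkbp5, and the 3 genes with the highest Pearson r with Cyp7a1, Nr0b2 and Slc51a. The values of 1 further regulator, which is part of the counts, are not reported here. Others are said to be chosen after their values were seen. As alternatives, each library was left out, acinar markers were removed, libraries were scaled by median ratios, the replicate number entered as a block, the pseudocount was 0.1, the filter on low values or the fold limit was dropped, and unadjusted p was used. Leaving out 2 libraries together was added after seeing the data. RefSeq windows of GRCm38.p6 were matched by symbol, and Cyp7a1 and Cyp7b1 had none in the table.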

Additional observations from a re-analysis of the deposited data

Results flagged for a closer look

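The change under CORT differed between the tissues for 4 genes by test. They were 1 of 4 bile acid genes and 3 of 29 further genes that passed in both tissues. Of all genes that passed in either tissue, a wider set, 3.61% were called. The treatment by tissue term of limma, given as duodenum minus liver on the log2 scale, was called for Cyp27a1 at 1.5004 (adjusted p = 0.0493, called in 2 of 12 fits with a library left out). It was also called for Acox2 at 3.13 (limma adjusted p = 0.000222), Cyp39a1 at -2.53 (0.00604) and Hnf4a at -1.08 (0.00886), each in 12 of 12 such fits. For Nr0b2, at 2.09 (limma adjusted p = 0.0577), and Cyp7b1, at 2.15 (0.0800), every CORT library lay below every Veh library in the liver and above in the duodenum, but the difference itself was not called. For Cyp7b1 the duodenum values were between 0.39 and 1.14 TPM and passed the filter on the CORT mean alone. Groups of 3 libraries were too small to look for a single sample that stood apart by a fixed rule.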

How the results depend on the processing

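Of the 10 bile acid genes, 2 were called in the duodenum, against 0 with no filter on low values, 1 with the replicate block, 0 without Veh libraries 2 and 3, and 0 to 2 with each library left out. In the liver 1 was called, against 2 with median-ratio scaling, 4 at an unadjusted p, and 0 to 2 with each library left out. Of the further genes 3 were called in the duodenum, against 1 with no filter, 0 without Veh libraries 2 and 3, 9 at an unadjusted p, and 1 to 2 with each library left out. In the liver 6 were called, against 3 with no filter, 3 with the replicate block, 15 at an unadjusted p, and 3 to 8 with each library left out. The tissue difference was called for 1 of 4, against 0 with a pseudocount of 0.1, 0 with no filter, and 0 to 2 with each library left out. In the liver the sign turned for Cyp8b1 (-0.29 to 1.12 with each library left out) and Slc10a1 (-0.25 to 0.19). The other log2 changes of the 10 genes kept their direction. With no filter more genes were tested, and the share of all genes at an unadjusted p was not counted. The cause of the other moves was not tested. The replicate numbers did not pair the libraries. With the replicate block 1 gene was called in the liver, Cyp7b1 (adjusted p = 0.0340) in place of Cyp27a1 (0.0507), the 1 tissue difference called was Cyp7b1 (0.0207) in place of Cyp27a1 (0.0751), and in the duodenum Nr0b2 was lost (0.0631). The depth behind the TPM values is unknown.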

Other observations

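Clec4f, a Kupffer cell lectin and the 1 macrophage marker called in the duodenum, was chosen after its values were seen. It measured 10.3, 5.31 and 7.42 TPM under CORT and 0.05, 0.15 and 0 TPM in Veh duodenum (log2 fold change 2.99, limma adjusted p = 0.00450), while in liver it measured 48.7 ± 25.4 and 45.9 ± 8.92 TPM. In the duodenum Clec4f passed the filter only through its CORT mean, the group where it was higher. The 8 markers of its list summed to between 93.7 and 120 TPM under CORT and between 69.6 and 116 TPM in Veh duodenum. In the liver, the 8 summed to 102, 166 and 301 TPM under CORT and 123, 143 and 154 TPM in Veh. Slco1a1, a hepatic organic anion carrier chosen here after its values were seen, measured 75.1, 12.7 and 10.6 TPM under CORT and 77.6, 67.6 and 88.9 TPM in Veh liver. It was not called over all libraries (log2 fold change -1.77, limma adjusted p = 0.153) and was called without CORT library 1 (-2.64, 0.00379).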
